A study of Mus musculus with 8 samples.

Results

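The genes described here are 10 mouse genes of MHC class II antigen presentation and T cell co-stimulation, measured in sorted hepatic stellate cells. They were chosen by name: Cd74, H2-Aa, H2-Ab1, H2-Eb1, H2-DMa, H2-DMb1, Ciita, Cd80, Cd86 and Cd40. Of these, 9 had a probe set that the platform annotation maps to that symbol alone, among 19938 genes tested in all. The annotated probe set of H2-DMb1 is shared with H2-DMb2, so no level was assigned to it. Stellate cells, the retinoid-storing pericytes of the liver sinusoid, were taken from male Balb/c mice and lysed directly after a sort on their retinoid autofluorescence. The quiescent group (4 arrays) came from normal mice of 18 weeks. The reverted group (4 arrays) came from mice given 4 injections of the hepatotoxin carbon tetrachloride (CCl4) at 0.5 µl per g body weight, 2 per week, and then rested for 45 days. The labels state the age of the reverted group as 18 weeks in 1 place and 16 weeks in another. Nothing in them ties an array to an individual animal or a pool, so p-values speak only of the spread among these samples, which could be technical. A vehicle group is not described in the labels, and cells taken at the height of injury were not analysed here.

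MHC class II molecules present peptides from endocytosed protein to CD4 T cells. An alpha and a beta chain (H2-Aa with H2-Ab1, H2-Ea with H2-Eb1) assemble on the invariant chain encoded by Cd74, and H2-DM exchanges the remnant of that chain for peptide. Ciita is the co-activator that switches these genes on, in response to interferon gamma in cells outside the professional antigen-presenting lineages. Cd80 and Cd86 deliver the co-stimulatory signal through Cd28, and Cd40 receives the signal of Cd40lg on T cells. Whether stellate cells present antigen has been debated, with resident macrophages and dendritic cells as the other candidate sources of class II in such preparations.

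Ciita acts on class II promoters through factors bound at an X box and a Y box, an inverted CCAAT. Promoter windows of 250 bases before to 50 after the start site in RefSeq (GRCm38.p6, strain C57BL/6J, not Balb/c) were searched for 5 members. These were Cd80, H2-Aa, H2-DMa, H2-DMb1 and H2-Eb1. The other 5 members, Cd74 among them, were not searched, which does not show that RefSeq lacks windows for them. The stretches below show the Y box region of the searched class II genes that have the Y letters ahead of the start site in a single window. They are shown because Ciita, the regulator whose values are described below, acts on such promoters. Capitals mark the letters ATTGG of the Y box, searched on both strands, and the stretches lie on chr17:34287857-34287921 (minus strand), chr17:34305758-34305822 (plus strand) and chr17:34153080-34153144 (plus strand) in this order.
H2-Aa: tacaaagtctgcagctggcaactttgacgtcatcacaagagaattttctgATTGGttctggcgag
H2-Eb1: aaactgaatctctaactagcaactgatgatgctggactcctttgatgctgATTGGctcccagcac
H2-DMb1: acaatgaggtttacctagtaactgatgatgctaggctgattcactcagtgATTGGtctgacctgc
The Y letters began 48, 59 and 61 bases before the start site in H2-Aa, H2-Eb1 and H2-DMb1. H2-Eb1 held them a further time on the reverse strand. They occur in 37.4% of the 32851 mouse windows searched. The Cd80 window held none, and of the 2 H2-DMa windows 1 held them. A match of letters is a description of these windows and shows no binding.

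None of the 9 measured genes passed the test across all genes. In limma with Benjamini-Hochberg adjustment over 19938 genes, 0 members had an adjusted p under 0.05, against 0.712% of all genes (0.527% called higher and 0.186% called lower in reverted cells). At an unadjusted p under 0.05 there were 4 members (Cd74, Ciita, H2-DMa and H2-Eb1), against 16.0% of all genes. Cd74 had the higher mean in reverted cells, and the other 3 the lower mean. The reverted mean was the higher one for 3 members, against 46.4% of all genes, and the lower one for 6. The median log2 change was -0.05 over the 9 members and -0.01 over all genes. Over olfactory and vomeronasal receptor genes, used below as a stand-in for probe sets with little signal, it was -0.03. With the lower 50% of genes by level left out, the median over all genes rose by 0.04. The medians of dim genes thus lay lower than those of brighter ones. The groups did not overlap in 1 member, Ciita, and in 8.73% of all genes. All values are log2 RMA values, changes are reverted minus quiescent, and n = 4 arrays per group throughout.

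**Figure D1:**
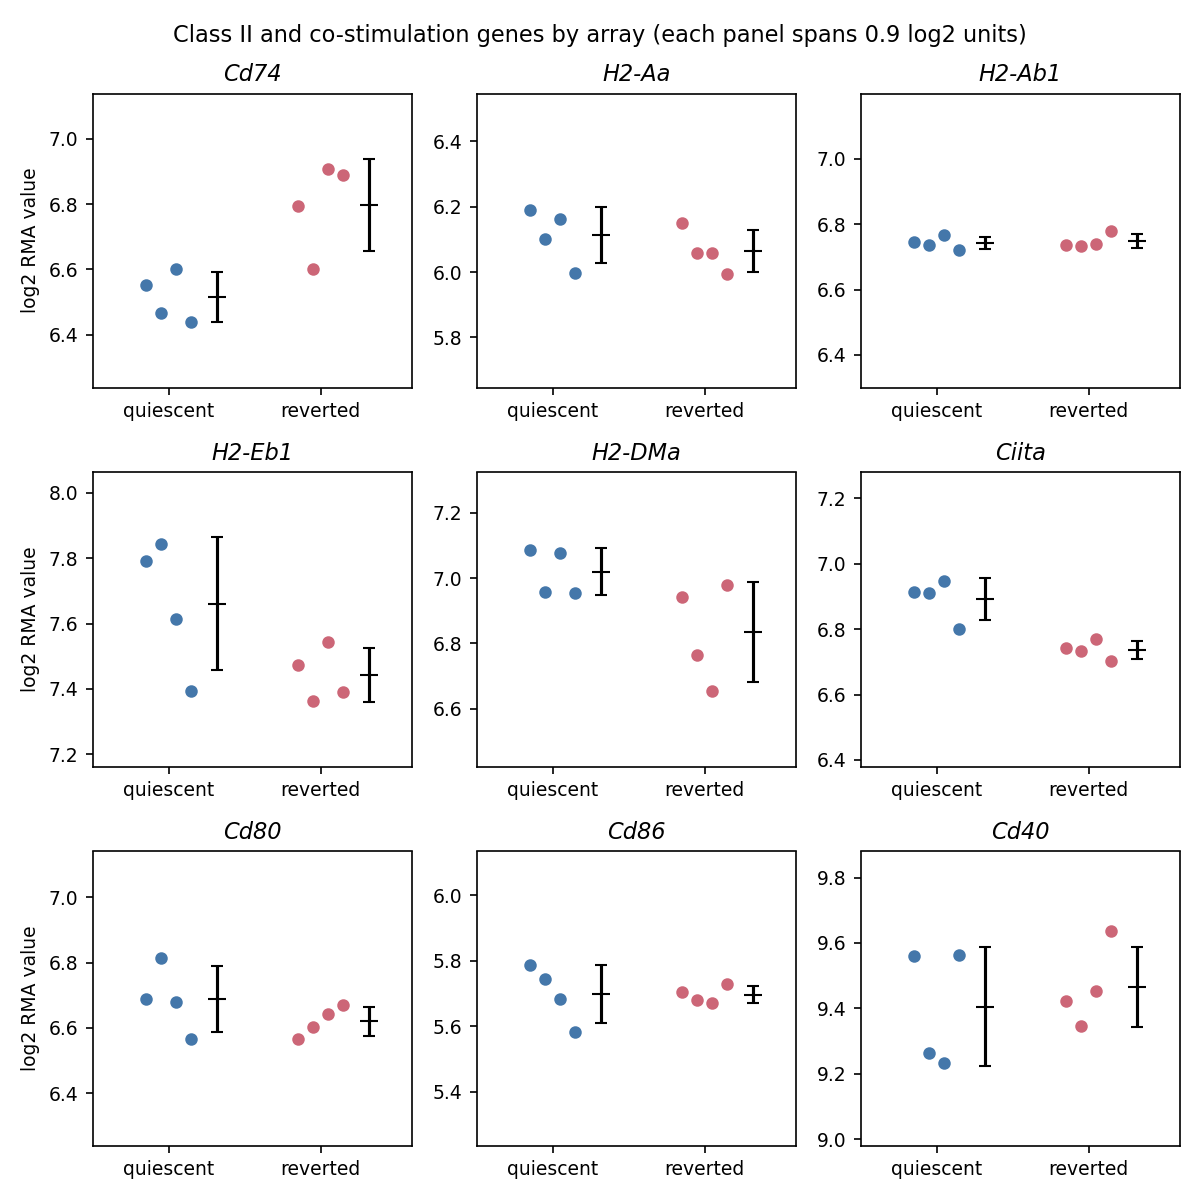
Log2 RMA values of the 9 measured genes on each array (points) with the group mean and SD (bar at the right of each group); every panel spans the same 0.9 log2 units. Cd74 is the member with the largest difference, 0.28, and Ciita the only member whose groups do not overlap.

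The sorted cells carried the stellate program on all arrays. The 10 measured stellate markers, Lrat and Des among them, had a mean level between 13.80 and 13.83 in quiescent and between 13.73 and 13.83 in reverted arrays, and 0 of them passed the test. The reverted mean was the lower one for all 10 (median change -0.03). Of these, 2, Ngfr and Colec11, had an unadjusted p under 0.05 and groups that did not overlap. Over all genes the shares were 16.0% and 8.73%. Ecm1, the marker with the highest level, stood at 14.42 and 14.37, and Ngfr, a neurotrophin receptor, had the smallest p of the list (-0.20, adjusted p = 0.176). Median values of the 8 arrays lay between 7.66 and 7.74.

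With the exception of Cd40, the members lay in the lower part of the value scale. These files carry no detection call, so olfactory and vomeronasal receptor genes, which are silent in most tissues outside the nose, were used as a stand-in for probe sets with little signal. The median of these 1194 genes was 5.62, and 95% lay under 6.89. Cd86 had a mean of 5.70 over the 8 arrays, above 55.6% of the receptor genes, and H2-Aa a mean of 6.09, above 78.6%. Cd80 (6.65), Cd74 (6.66), H2-Ab1 (6.74) and Ciita (6.81) lay above 92.0% to 93.6% of them, and so below their upper 5%. H2-DMa (6.93) was above 95.5%, H2-Eb1 (7.55) above 98.6% and Cd40 (9.44) above 99.9%. Only Cd40 lay in the upper 50% of all genes, at level percentile 65.6. Probes differ in how strongly they bind, so these positions give no order of abundance between genes. Class II genes also vary between inbred strains, and how well the probes match the Balb/c alleles was not tested. Differences of genes this close to the bottom of the scale may be understated.

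**Figure D2:**
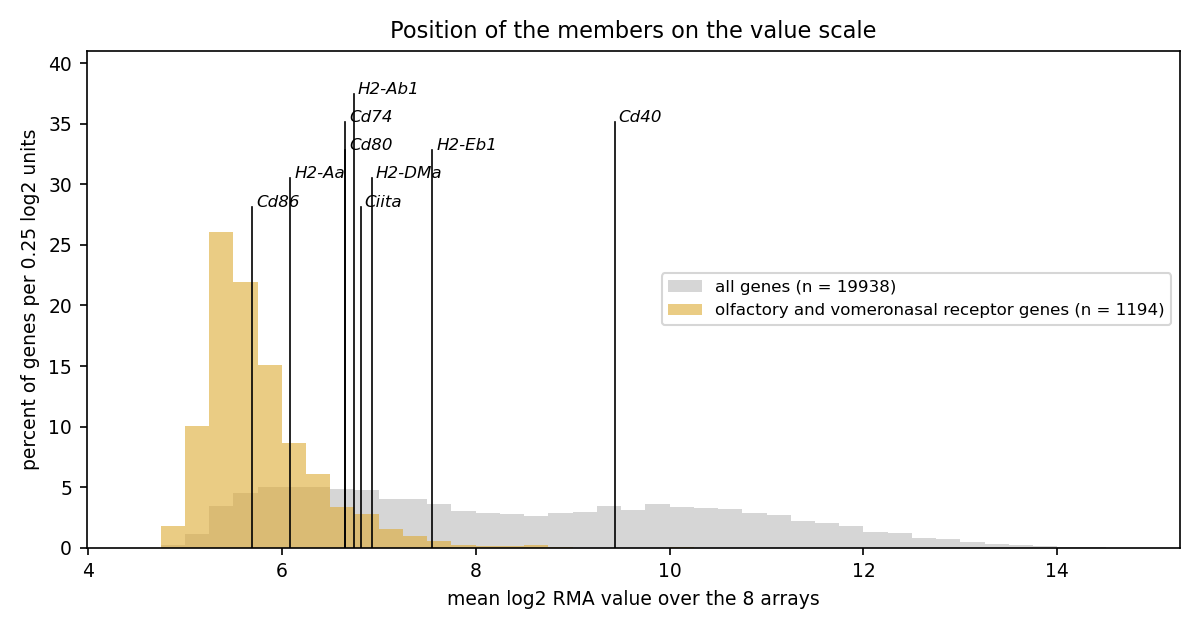
Distribution of mean log2 RMA values over the 8 arrays, as percent of genes per 0.25 log2 units, for all 19938 genes (grey) and for 1194 olfactory and vomeronasal receptor genes (yellow); vertical lines mark the 9 members. Cd86 and H2-Aa lie within the bulk of the receptor genes, and Cd40, at 9.44, lies apart from the other members.

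The invariant chain gene Cd74 had the largest difference of the members. Its quiescent values were 6.55, 6.47, 6.60 and 6.44, and its reverted values 6.80, 6.60, 6.91 and 6.89. Reverted arrays 1, 3 and 4 lay above each quiescent array, while reverted array 2 lay just below quiescent array 3. The means were 6.51 ± 0.08 in quiescent and 6.80 ± 0.14 in reverted cells (SD). The log2 change was thus 0.28 (SE 0.07), or 1.22-fold with a 95% confidence interval from 1.09 to 1.36. The adjusted p in limma was 0.127, and the exact 2-sided permutation test over the 8 arrays gave p = 0.0571, where the smallest p it allows is 0.0286. Without reverted array 2 the change was 0.35 and passed (adjusted p = 0.0448 in limma). With each of the other arrays left out the adjusted p lay between 0.123 and 0.304.

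Of the class II chain genes, H2-Eb1 and H2-Aa had lower and H2-Ab1 a marginally higher mean in reverted cells, and none passed. H2-Eb1, the beta chain of the I-E molecule, had quiescent values of 7.79, 7.84, 7.61 and 7.39 and reverted values of 7.47, 7.36, 7.54 and 7.39. Quiescent arrays 1, 2 and 3 lay above all reverted arrays, and quiescent array 4 lay among them. The log2 change was -0.22 (SE 0.09, adjusted p = 0.302 in limma, exact permutation p = 0.114), or 0.860-fold with a 95% confidence interval from 0.743 to 0.996. Without quiescent array 4 the change was -0.31 (adjusted p = 0.0692).

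H2-Aa and H2-Ab1, the alpha and beta chains of the I-A molecule, differed by less than the spread between arrays. H2-Aa read 6.19, 6.10, 6.16 and 5.996 in quiescent and 6.15, 6.06, 6.06 and 5.99 in reverted cells, with overlapping groups. Its change was -0.05 (SE 0.05, adjusted p = 0.674), running from -0.086 without quiescent array 4 to -0.022 without quiescent array 1, and its fold had a 95% confidence interval from 0.890 to 1.05. H2-Ab1 read 6.75, 6.74, 6.77 and 6.72 in quiescent and 6.74, 6.73, 6.74 and 6.78 in reverted cells. This was the member with the narrowest spread, with SDs of 0.02 in both groups. Its change was 0.01 (SE 0.03, adjusted p = 0.947), and its fold had a 95% confidence interval from 0.953 to 1.06. Such intervals hold for values near the bottom of the scale and do not show that the mRNA levels were equal.

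H2-DMa encodes the alpha chain of the peptide exchange factor. It had quiescent values of 7.09, 6.96, 7.08 and 6.96 and reverted values of 6.94, 6.77, 6.65 and 6.98. Reverted arrays 1, 2 and 3 lay below each quiescent array, and reverted array 4 lay within the quiescent range. The log2 change was -0.18 (SE 0.07, adjusted p = 0.282 in limma, exact permutation p = 0.114), or 0.881-fold with a 95% confidence interval from 0.784 to 0.990.

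Ciita was the member with the next smallest p after Cd74, and in the opposite direction. Quiescent values were 6.91, 6.91, 6.95 and 6.80, and reverted values 6.74, 6.73, 6.77 and 6.70. Each reverted array lay below each quiescent array, with quiescent array 4 the nearest to them. The means were 6.89 ± 0.06 in quiescent and 6.74 ± 0.03 in reverted cells (SD). This is a change of -0.16 on the log2 scale (SE 0.04), or 0.898-fold with a 95% confidence interval from 0.841 to 0.959. It did not pass over all genes in limma (adjusted p = 0.146). The exact permutation test gave p = 0.0286, the smallest that 4 against 4 arrays allow. Over the alternatives for which Ciita had a value, its adjusted p lay between 0.0602 and 0.325.

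**Figure D3:**
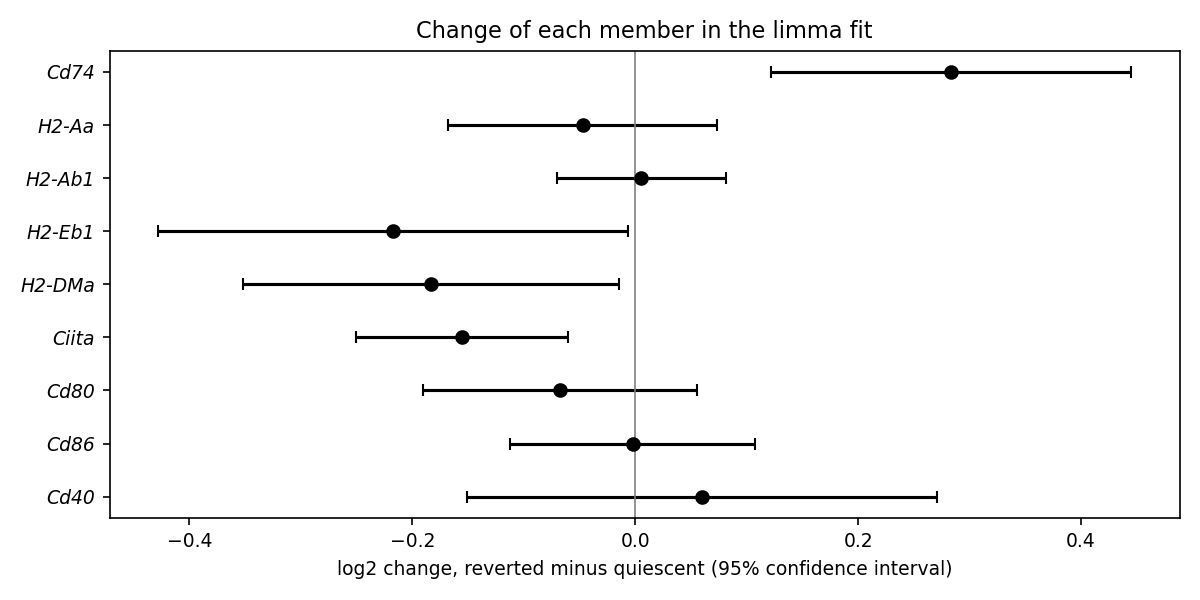
Log2 change (reverted minus quiescent) of the 9 measured genes with 95% confidence intervals from the limma fit, not adjusted for the number of genes. The intervals of Cd74 (above 0) and of H2-Eb1, H2-DMa and Ciita (below 0) leave out 0, while no member passed after adjustment over all genes.

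Of the co-stimulation genes, Cd40 was the member that lay well up the scale. This receptor of the TNF receptor family read 9.56, 9.26, 9.23 and 9.56 in quiescent and 9.42, 9.35, 9.45 and 9.64 in reverted cells. Quiescent arrays fell into a higher pair (1 and 4) and a lower pair (2 and 3), and 3 of the 4 reverted arrays lay between them. The change was 0.06 (SE 0.09, adjusted p = 0.77), and its fold had a 95% confidence interval from 0.901 to 1.21. It ran from 0.0025 without quiescent array 3 to 0.11 without quiescent array 4.

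The B7 genes Cd80 and Cd86 gave overlapping groups. Cd80 read 6.69, 6.81, 6.68 and 6.57 in quiescent and 6.56, 6.60, 6.64 and 6.67 in reverted cells, a change of -0.07 (SE 0.05, adjusted p = 0.552) that ran from -0.11 without quiescent array 4 to -0.025 without quiescent array 2. A dimmer Cd80 probe set, with means of 5.61 and 5.63, had a change of 0.02 (SE 0.04), so its probe sets differed in sign and neither passed. Cd86 read 5.79, 5.74, 5.68 and 5.58 in quiescent and 5.71, 5.68, 5.67 and 5.73 in reverted cells. Its change was -0.0023 (SE 0.05, adjusted p = 0.985), and its sign turned under quantile normalization and median centring.

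Within groups some members varied together and others did not. After each group's mean was removed, Pearson's r of Cd74 over the 8 arrays was 0.21 with H2-Aa, 0.33 with H2-Eb1 and 0.64 with H2-Ab1. For Ciita it was 0.78 with H2-Aa, 0.74 with H2-Eb1 and -0.65 with Cd40. H2-Eb1 had r = 0.81 with Cd86 and 0.76 with Cd80, and H2-DMa had 0.64 with H2-Ab1 and -0.04 with H2-Eb1. Cd74, H2-Aa, H2-Ab1 and H2-Eb1 had r of 0.70, 0.71, 0.44 and 0.87 with their own mean, so they shared its pattern unevenly. With that mean as the pattern, the non-member genes most like it were Cdc42ep1 (r = 0.983), F630028O10Rik (0.981), Asgr1 (0.979), Gpm6a (0.977) and Clca1 (0.975). Asgr1 encodes a subunit of the hepatocyte asialoglycoprotein receptor, and Gpm6a is in the mesothelial marker list. F630028O10Rik and Gpm6a lay at level percentiles 8.17 and 9.62. The olfactory receptor genes Olfr1093 and Olfr212 also had r = 0.964 with this pattern. These values describe 8 arrays that share a normalization, and a search over all genes yields high values of r.

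Other genes of the class II pathway gave no call either. Among 8 measured further class II chains and peptide loading genes, 0 passed and 0 had an unadjusted p under 0.05, with 2 higher and 6 lower means and a median change of -0.06. The smallest p belonged to Ifi30, the lysosomal thiol reductase (0.20, adjusted p = 0.403), and to the beta chain genes H2-Eb2 (-0.11, adjusted p = 0.409) and H2-Ob (-0.07, adjusted p = 0.434). H2-Ea, the partner chain of H2-Eb1, stood at 6.30 ± 0.04 and 6.37 ± 0.06 (SD, adjusted p = 0.447). Ctss, the protease that trims the invariant chain in antigen-presenting cells, read 6.59 and 6.50 on average.

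The factors on which Ciita acts were well up the scale in both groups. All 9 genes of the class II transcription machinery were measured, with a median level percentile of 88.0, and 0 passed or had an unadjusted p under 0.05. Their median change was 0.01. Rfx5, which binds the X box, had means of 9.73 and 9.74, and Nfyb, Nfyc and Rfxap had the smallest p (0.11, 0.06 and -0.05, adjusted p from 0.484 to 0.633).

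Interferon gamma signalling genes were likewise high on the scale, at a median level percentile of 90.9. Of 10 measured, 0 passed and 2 had an unadjusted p under 0.05, against 16.0% of all genes. The median change was -0.00056. The 2 genes with such a p were Ifngr2 and Ifngr1, the receptor subunits. Ifngr2 read 11.92, 11.89, 12.07 and 11.98 in quiescent and 12.20, 12.02, 12.24 and 12.20 in reverted cells, a change of 0.20 (adjusted p = 0.168), with reverted array 2 inside the quiescent range. Ifngr1 had a change of 0.13 (adjusted p = 0.271), and the kinase gene Jak2 of -0.07 (adjusted p = 0.547). Ifng itself stood at 7.12 and 7.08.

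The measured genes of MHC class I presentation lay high on the value scale. Of 17 listed genes 12 were measured, with a median level percentile of 90.3. The class I heavy chain genes H2-K1, H2-D1, H2-L, H2-Q7 and H2-T23 had no value. B2m, the light chain of class I, stood at 13.92 in both groups. In this list 0 genes passed and 2 had an unadjusted p under 0.05, against 16.0% of all genes. The reverted mean was higher for 2 genes and lower for 10, against 46.4% higher over all genes. The median change was -0.06. The peptide trimming enzyme gene Erap1 read 10.62 to 10.66 in quiescent and 10.75 to 10.82 in reverted cells, with no overlap (0.15, SE 0.04, adjusted p = 0.102). Nlrc5, the class I counterpart of Ciita, had a change of -0.16 (SE 0.06, adjusted p = 0.248) and overlapping groups. Pdia3 had a change of -0.08 (adjusted p = 0.475).

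Among 15 further B7 and TNF family co-signalling genes, 0 passed and 2 had an unadjusted p under 0.05, against 16.0% of all genes. Their median change was -0.03. Cd83, a surface protein that stabilises class II and Cd86 on antigen-presenting cells, had the largest difference. Its quiescent values were 8.37, 8.52, 8.74 and 8.64 and its reverted values 8.31, 7.97, 8.27 and 7.88. All reverted arrays lay below all quiescent arrays, by a narrow margin between reverted array 1 and quiescent array 1. The change was -0.46 (SE 0.11, adjusted p = 0.118 in limma). Vtcn1 (-0.14, adjusted p = 0.137) and Tnfrsf14 (-0.07, adjusted p = 0.364) also had groups that did not overlap. This held for 3 of the 15 genes and for 8.73% of all genes. The inhibitory ligand gene Cd274 stood at 9.46 and 9.45.

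Partners of Cd40 and Cd28 on T cells and downstream of Cd40 held 10 measured genes, with a median change of 0.01. Of these, 0 passed and 2 had an unadjusted p under 0.05, against 16.0% of all genes. Traf5, an adaptor of Cd40, had a change of 0.27 (SE 0.08, adjusted p = 0.166). The T cell genes Ctla4 (-0.16, adjusted p = 0.249) and Icos (-0.11, adjusted p = 0.405) lay low on the scale, at level percentiles 25.6 and 34.0. Without quiescent array 4 Ctla4 passed (-0.22, adjusted p = 0.0461).

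**Figure D4:**
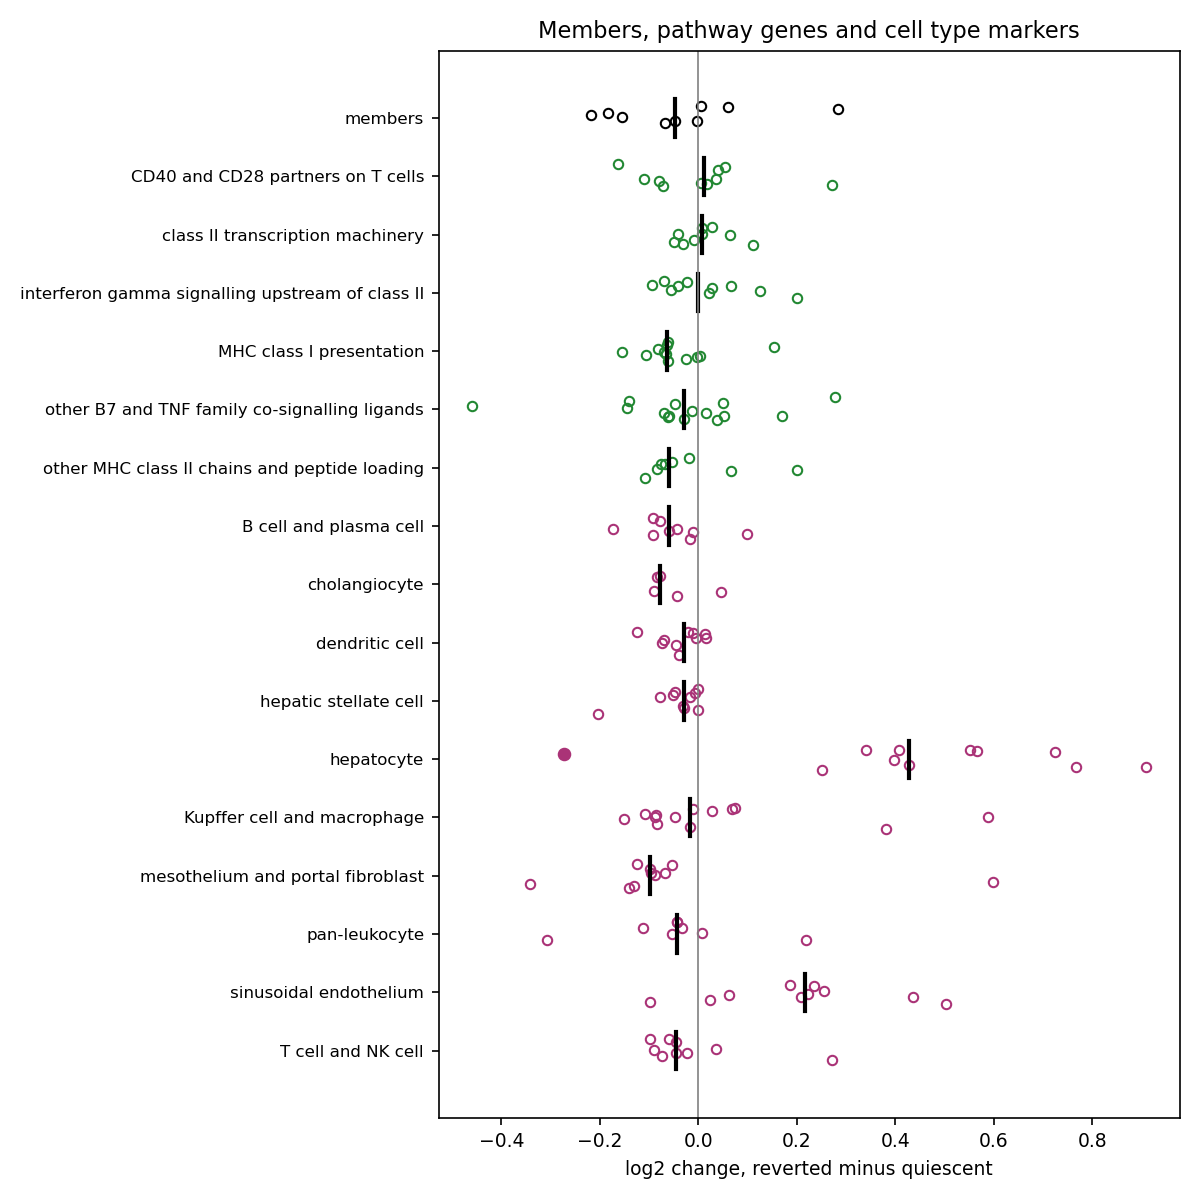
Log2 change (reverted minus quiescent) of each measured gene in the members (black), the 6 pathway lists (green) and the 10 cell type marker lists (purple); black bars are list medians, filled points passed an adjusted p of 0.05 and open points did not. The members and pathway lists hold no filled point, and the hepatocyte markers lie furthest to the right, with a median of 0.43.

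Most markers of the cells that carry most class II in liver lay low on the scale, with median level percentiles of 27.9 (pan-leukocyte), 31.8 (macrophage), 29.7 (dendritic cell) and 17.2 (B cell). Of 8 pan-leukocyte markers 0 passed, and their mean per array ran from 7.25 to 7.33 in quiescent and from 7.22 to 7.27 in reverted cells. Ptprc (CD45) stood at 6.34 and 6.30, at level percentile 20.8. The 10 dendritic cell markers had means per array from 7.03 to 7.13 and from 7.01 to 7.09, with 0 called, and Itgax (CD11c) stood at 6.76 and 6.69. In that list Xcr1 had the smallest p (-0.07, adjusted p = 0.421) and Zbtb46 the highest level (9.51 and 9.48). The 9 B cell and plasma cell markers had means per array from 6.32 to 6.48 and from 6.31 to 6.36, with 0 called, Cr2 at the smallest p (-0.09, adjusted p = 0.296) and Ighm at the highest level (7.32 and 7.24). No list had a marker at 0, since RMA values of dim probe sets do not reach it.

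Macrophage markers moved unevenly beside Cd74. The 13 Kupffer cell and macrophage markers had means per array from 6.87 to 6.97 in quiescent and from 6.89 to 7.002 in reverted cells, with 0 called, 5 higher and 8 lower means. Lyz2, the lysozyme gene of macrophages and other myeloid cells, read 6.67, 6.62, 6.45 and 6.60 in quiescent and 7.24, 6.81, 7.004 and 7.63 in reverted cells, with no overlap (0.59, SE 0.15, adjusted p = 0.129). Its lowest reverted value was on array 2, as for Cd74, but its highest was on array 4 and that of Cd74 on array 3. Cd68 had the highest level of the list (10.16 and 10.54, adjusted p = 0.341). The Kupffer cell markers Clec4f (7.08 and 6.995), Vsig4 (5.84 and 5.86) and Adgre1 (5.84 and 5.80) and the receptor gene Csf1r (7.08 and 6.998) gave overlapping groups. Laptm5, a lysosomal protein gene of leukocytes, had a change of 0.22 (SE 0.07, adjusted p = 0.172). Arhgdib, the pan-leukocyte marker with the highest level, stood at 12.81 and 12.76. The pan-leukocyte list held 2 higher and 6 lower means, with a median change of -0.04. The olfactory and vomeronasal receptor genes, the stand-in for dim probe sets, had a median change of -0.03. Coro1a was lower in reverted cells with no overlap (-0.11, adjusted p = 0.294), and Cd53 had the largest change (-0.31, adjusted p = 0.362). Without quiescent array 1 Cd53 passed (-0.49, adjusted p = 0.0198 in limma). The part of leukocyte RNA in the Cd74 difference was not tested, and in bulk samples more cells of a type and more RNA per cell cannot be told apart.

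**Figure D5:**
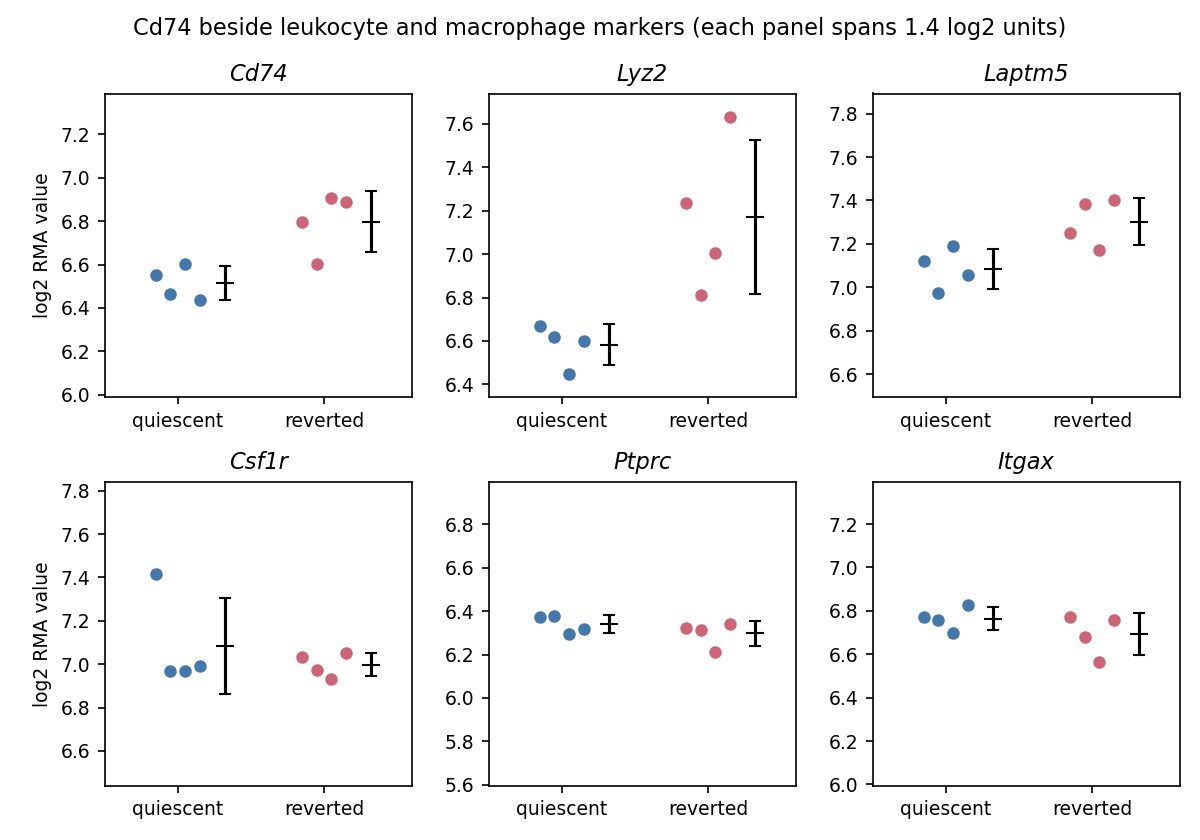
Log2 RMA values of Cd74 and of 5 leukocyte or macrophage markers on each array (points), with the group mean and SD (bar at the right of each group); every panel spans 1.4 log2 units. Lyz2 (means 6.58 and 7.17) and Laptm5 (7.08 and 7.30) have higher reverted means, as Cd74 does. Csf1r, Ptprc and Itgax have slightly lower ones. The markers shown are a selection. Higher and lower means numbered 2 and 6 in the full pan-leukocyte list, 5 and 8 for macrophages and 2 and 8 for dendritic cells.

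Among the marker lists, those of hepatocytes and sinusoidal endothelium had the largest median changes, and their means per array overlapped between the groups. Hepatocyte markers (11 measured) had a higher mean in reverted cells in 10 genes, against 46.4% of all genes, with a median of 0.43. Of the 11, 6 had an unadjusted p under 0.05, against 16.0% of all genes. Among these were Apoa1 (0.72, adjusted p = 0.169, no overlap) and Ahsg (0.91, adjusted p = 0.198, overlapping groups). The means of the hepatocyte list per array overlapped (8.51 to 9.57 in quiescent, 9.21 to 9.70 in reverted). Trf, the transferrin gene, fell by 0.27 on the log2 scale (adjusted p = 0.04, and up to 0.144 with an array left out) and was the only call in the marker lists. Trf went against the direction of the other 10 hepatocyte markers. Its quiescent SD was 0.08, against 0.50 for Apoa1 and 0.62 for Ahsg. It lost the call with each array left out except quiescent array 4, and after median centring (adjusted p = 0.0559), where the single marker call was the higher level of Clec4g. Sinusoidal endothelial markers (10 measured, 0 called) had 9 higher means, a median of 0.22 and means per array from 8.05 to 8.45 and from 8.23 to 8.83. Clec4g, a lectin of these cells and the highest in that list, was at 11.82 to 11.92 in quiescent and 12.08 to 12.65 in reverted cells (0.50, SE 0.10, adjusted p = 0.063), and passed without reverted array 1 (adjusted p = 0.0142), after median centring (0.045) and with array weights (0.0319). With the mean of its probe sets in place of the brightest the change was 0.29 (adjusted p = 0.124). Sinusoidal endothelium can itself carry class II, and its part in the values of the members was not tested.

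The remaining lists showed small differences. The 9 T cell and NK cell markers had 0 calls and means per array from 6.60 to 6.69 and from 6.58 to 6.67, with Cd8a at the smallest p (-0.09, adjusted p = 0.416). In that list Cd3e stood apart in level, at 10.51 and 10.78, while Cd3d and Cd3g stood at 6.17 and 5.94 in quiescent cells. The 5 cholangiocyte markers had 0 calls and means per array from 6.62 to 6.80 and from 6.63 to 6.71, with Epcam at the smallest p (-0.09, adjusted p = 0.364) and Sox9 at the highest level. The 10 mesothelial and portal fibroblast markers had 0 calls and means per array from 7.52 to 7.73 and from 7.54 to 7.68. In that list Cd34 (0.60, adjusted p = 0.0631) and the elastin gene Eln (-0.34, adjusted p = 0.118) lay on opposite sides of 0. Cd34 passed without reverted array 2 (adjusted p = 0.0257) and Eln without reverted array 1 (adjusted p = 0.0386).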

How the data were processed

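The authors deposited log2 values from RMA (background correction, normalization across arrays, probe summary), per the submitters' processing notes. RMA settings and genome build are not given in the sources used here. In all, the table holds 35556 probe sets and 8 arrays, with 0 columns without a sample. Symbols came from the platform annotation: 21789 probe sets carry 1 symbol, 1621 carry several and 12146 are not listed. For a gene with several probe sets the one with the highest mean was used, giving 19938 genes without a filter on dim genes.

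The group difference was fitted per gene in limma 3.58.1 (lmFit, eBayes; R 4.3.3), 2-sided, with Benjamini-Hochberg adjustment over all genes and calls at 0.05. Exact permutation tests used all 70 splits. The fit was tested on simulated data. Python 3.11.15, pandas 2.3.3 and matplotlib 3.10.9 served for tables and plots. The number of arrays limits the precision. Promoter windows were searched for Y box letters; a planned X box search is not reported here.

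The members and gene lists were chosen with earlier results of these data known. Named genes are the members, the 3 genes with the smallest p of each pathway list, the gene with the smallest p and that with the highest level of each marker list, and the 5 genes most like the class II mean. Beyond this rule, Rfx5, H2-Ea, Ctss, Ifng, B2m, Cd274, Lrat, Des, Ptprc, Itgax, Clec4f, Vsig4, Adgre1, Csf1r, Colec11, Cd3d and Cd3g were named after their values were seen. So were Cd53, Coro1a, Apoa1, Ahsg, Olfr1093 and Olfr212. The alternatives were quantile normalization, median centring, 2 filters on dim genes, the mean of all probe sets, array weights, a robust variance with intensity trend, a block for the replicate number, and the omission of single arrays. Their use on the gene lists was added after seeing the data.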

Additional observations from a re-analysis of the deposited data

Results flagged for a closer look

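A value far from the other 3 of its group was found in 9 of the 100 groups of 4 arrays examined (2 per member or gene named by rule). For independent, unselected groups chance gives about 1 in 20. These genes were partly chosen by p, level or array pattern, so that rate does not apply to this count. Cdc42ep1 and Clca1 were chosen for likeness to the class II mean, whose lowest quiescent value was itself on array 4 (6.64). Of the members this concerned H2-Ab1, which read 6.78 on reverted array 4 against 6.73 to 6.74 on the others. Quiescent array 4 was the low one for Icos (6.92 against 7.09 to 7.11), Xcr1 (6.80 against 6.85), Ecm1 (14.38 against 14.43 to 14.44), Cdc42ep1 (10.57 against 10.81 to 10.84) and Clca1 (6.44 against 6.54 to 6.56). Rfxap read 8.98 on quiescent array 1 against 9.08 to 9.10, Ifi30 11.18 on reverted array 4 against 11.11 to 11.12, and Epcam 6.16 on reverted array 1 against 6.05 to 6.07.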

How the results depend on the processing

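No member passed under any alternative except Cd74 without reverted array 2, so the count of called members with an array left out ran from 0 to 1. The direction of Cd74, H2-Aa, H2-Eb1, H2-DMa, Ciita, Cd80 and Cd40 held in every alternative that kept them. Without the lowest 25% of genes by level 7 members remained, and without the lower 50% only Cd40. Cd86 turned positive under quantile normalization (0.0122), median centring (0.0187) and in 4 omissions of an array, which ran from -0.0413 (without quiescent array 4) to 0.027 (without quiescent array 1). With single arrays omitted H2-Ab1 ran from -0.0049 to 0.0137, Zbtb46 from -0.0872 to 0.0256 and Asgr1 from -0.0316 to 0.0734. Clca1 turned under quantile normalization (0.0127) and centring (0.00296), Zbtb46 under centring (0.000398) and Ighm with the mean of all probe sets (0.00723). The count over all genes was 142 (105 higher, 37 lower), 306 with array weights, 54 to 247 with an array left out, and 117 higher against 21 lower after centring. Same-numbered arrays did not deviate together (r from -0.15 to 0.08). With the replicate number as a block, 63 genes and 0 members were called, with an adjusted p of 0.143 for Cd74. Marker calls numbered 0 with this block, 2 with an intensity trend or array weights, and 0 to 2 with an array left out; pathway calls ran from 0 to 1. The causes were not tested.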
